A study of Mus musculus with 20 samples.

Results

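The 10 claudin genes Cldn1, Cldn2, Cldn3, Cldn4, Cldn7, Cldn8, Cldn12, Cldn15, Cldn18 and Cldn23 were followed across colon organoids with and without oncogenic Braf. They were chosen as a named list, matched by gene name to the non-control probes of the arrays, and stood beside 21423 genes tested in all. All 10 had a probe. 9 of them passed the filter on dim probes, which asked for a signal the scanner software flagged as well above background on 3 arrays. Cldn18 was flagged so on 0 of 18 arrays. Three-dimensional cultures were grown from the first 2.5 cm of the proximal colon of male mice of about 40 days, and RNA was measured on Agilent arrays of a single colour (Cy3), with 1 array for each culture in each medium. Every EV, BRAF and selected line carried a heterozygous Cre-activable BrafV600E allele (Braf+/LSL). Selected organoids had the allele activated and were then selected to grow in base medium, a medium free of the niche factors that feed stem cells. BRAF organoids had received Cre by lentivirus, and the series' design text places the profiling 5 months after induction. EV organoids received the lentiviral backbone without Cre. Each of these types had 3 lines, numbered 1 to 3 alike in the 3 types, and every culture gave 1 array from 48 h in base medium and 1 from 48 h in a medium the labels call ENSW. The growth protocol gives Wnt3a, R-spondin and Noggin, each as conditioned medium, and EGF as the factors of the growth medium. A wild-type (WT) culture gave 1 array per medium, so its values are given without a test. Whether a line was a single clone is not given in the sources used here.

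Claudins are small proteins with several membrane-spanning segments that polymerise into the strands of the tight junction and decide what passes between neighbouring epithelial cells. Some members seal the gap, and others, among them claudin-2 and claudin-15, form pores for small cations and water. In the intestine, claudin-2 and claudin-15 are known from crypts and leaky segments, while claudin-3, claudin-4, claudin-7, claudin-8 and claudin-23 are known from the tighter colon surface.

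A level here is a log2 unit relative to the 75th percentile of its array, so levels compare arrays for 1 probe and do not compare genes. A difference is a difference of 2 group means on that log2 scale, with the standard error (SE) of the limma fit. A gene was called where the Benjamini-Hochberg adjusted p of limma's moderated test, over all 21423 genes, was under 0.05. On the 20 arrays 59.6% to 65.2% of spots were well above background. Both arrays of selected line 1 stood apart from selected lines 2 and 3 on the second principal component, which held 12.3% of the variance. EV arrays shared no slide with BRAF or selected arrays, so slide and type cannot be told apart in comparisons with EV. The epithelial genes Cdh1, Epcam and Krt8 and the intestinal factor gene Cdx2 were well above background on every array. Cdx1, another intestinal factor gene, stood in base medium at -4.61 ± 1.78 (SD, n = 3) in selected organoids, -1.60 ± 4.49 in BRAF organoids and 5.14 ± 0.41 in EV organoids. Nothing in the labels says that lines came from separate mice, and then p-values measure the spread between these lines. Precision is limited by having 3 arrays in each group.

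Promoter sequences are shown for 5 of the claudins on which calls rest, to set the regulatory sequence beside the values. They come from RefSeq (GRCm38.p6), run 5′ to 3′ on the gene's strand from 250 bases before the annotated start to 50 bases after it, and 8 of the 10 genes had an entry, the others being Cldn8 and Cldn23. Capitals mark matches, on either strand, to any of 3 short motifs. The first is the GC box, with the letters GGGCGG. The next is the core promoter element known as the TATA box, searched for as TATAAA. The last is the AP-1 site, where the transcription factors of the Fos and Jun families bind, spelled as TGANTCA. Cldn3, Cldn4 and Cldn7 stand first because their transcripts moved together, and Cldn2 and Cldn15 follow as the pore-forming members with the widest range between groups.
Cldn3, chr5:134985964-134986263 (plus strand): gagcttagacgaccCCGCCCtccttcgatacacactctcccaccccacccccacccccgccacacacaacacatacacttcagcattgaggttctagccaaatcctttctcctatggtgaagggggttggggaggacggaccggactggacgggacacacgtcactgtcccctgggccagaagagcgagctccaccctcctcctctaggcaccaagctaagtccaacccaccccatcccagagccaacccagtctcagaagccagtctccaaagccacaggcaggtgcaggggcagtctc
Cldn4, chr5:134946885-134947184 (minus strand): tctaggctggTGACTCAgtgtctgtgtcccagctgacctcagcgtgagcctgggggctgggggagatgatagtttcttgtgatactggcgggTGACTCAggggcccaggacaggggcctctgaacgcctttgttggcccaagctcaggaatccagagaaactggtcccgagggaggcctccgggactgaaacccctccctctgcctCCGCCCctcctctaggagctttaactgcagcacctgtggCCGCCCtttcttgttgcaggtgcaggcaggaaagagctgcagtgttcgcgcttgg
Cldn7, first start, chr11:69964529-69964828 (plus strand): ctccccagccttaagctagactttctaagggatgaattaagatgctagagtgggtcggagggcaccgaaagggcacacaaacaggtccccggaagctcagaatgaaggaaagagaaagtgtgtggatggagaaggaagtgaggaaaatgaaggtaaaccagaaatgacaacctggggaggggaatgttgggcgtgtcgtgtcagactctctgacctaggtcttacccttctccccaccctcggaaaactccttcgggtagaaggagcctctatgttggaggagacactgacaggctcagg
Cldn7, second start, chr11:69965171-69965470 (plus strand): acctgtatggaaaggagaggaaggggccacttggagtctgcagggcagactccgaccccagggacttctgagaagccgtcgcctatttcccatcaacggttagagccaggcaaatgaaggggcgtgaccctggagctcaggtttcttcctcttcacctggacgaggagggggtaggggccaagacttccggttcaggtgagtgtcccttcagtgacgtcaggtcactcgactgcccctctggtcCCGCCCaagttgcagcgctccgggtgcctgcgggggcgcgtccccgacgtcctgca
Cldn2, chrX:139800558-139800857 (plus strand): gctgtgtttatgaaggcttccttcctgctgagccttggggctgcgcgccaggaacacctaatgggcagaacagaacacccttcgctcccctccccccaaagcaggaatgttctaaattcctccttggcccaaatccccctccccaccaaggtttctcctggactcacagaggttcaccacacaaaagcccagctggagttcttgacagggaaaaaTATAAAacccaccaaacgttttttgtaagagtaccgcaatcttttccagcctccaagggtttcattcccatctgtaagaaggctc
Cldn15, chr5:136967619-136967918 (plus strand): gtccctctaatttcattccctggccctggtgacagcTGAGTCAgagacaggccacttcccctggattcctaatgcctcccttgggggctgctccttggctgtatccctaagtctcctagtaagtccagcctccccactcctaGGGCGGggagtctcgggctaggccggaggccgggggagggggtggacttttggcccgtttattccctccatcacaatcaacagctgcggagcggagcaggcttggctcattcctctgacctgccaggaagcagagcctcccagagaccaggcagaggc

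The Cldn3 and Cldn4 genes lie near each other on chromosome 5, on opposite strands. The Cldn4 window held 2 AP-1 matches, at 240 and 158 bases before the start (-240 and -158), and 2 GC box matches. The Cldn15 window held 1 AP-1 match at -214 and 1 GC box at -108. The Cldn3 window held 1 GC box, as did the window of the second Cldn7 start, and the window of the first Cldn7 start held none of the motifs. The Cldn2 window held a TATA box at -35. Across 32851 promoter windows of the same length, 35.7% held a GC box, 13.6% a TATA box and 7.81% an AP-1 match. Another 4 motifs were searched and had no match in the windows shown. The letters TTTATNG, for the intestinal CDX factors, were held by 10.9% of all windows. The letters CTTTGA, for the TCF/LEF factors of Wnt signalling, were held by 16% of them. For the zinc finger factors that include Gata4, the search used AGATAA, which 11.2% of windows held. For the grainyhead-like factors it used AACNGGTT, which 2.09% of windows held. A match says only that these letters are present.

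Of the 9 tested claudins of the list, those called between organoid types were, apart from Cldn2, lower in selected or BRAF organoids than in EV, or lower in selected than in BRAF organoids. In base medium, 5 of the 9 tested claudins (Cldn3, Cldn4, Cldn7, Cldn15 and Cldn23) were lower in selected than in EV organoids and 0 were higher, where 23.2% of all genes were called lower, 25% higher and 48.2% in either direction. BRAF organoids in base medium had 4 claudins lower than EV (Cldn3, Cldn4, Cldn7 and Cldn23) and 1 higher (Cldn2), where 13.1% of all genes were called lower, 17.9% higher and 31% in either direction. In ENSW medium 3 were lower in selected than in EV organoids (Cldn3, Cldn7 and Cldn15), and 0 were higher, where 5.15% of genes were called lower, 8.7% higher and 13.8% in either direction. Selected organoids had 2 claudins lower than BRAF organoids in base medium (Cldn3 and Cldn4) and 0 higher, where 5.14% of genes were called lower, 4.63% higher and 9.77% in either direction. The counts against EV in base medium stood beside a large share of all genes that was called as well. Single arrays moved several counts. For BRAF minus EV in base medium the count was 1 without EV line 3, 2 without BRAF line 1 or line 3 and 3 without EV line 1. Over all genes, 6651 were called there with every array and 4366 without EV line 3. That number was 4847 without BRAF line 1, 6656 without BRAF line 3 and 5117 without EV line 1. The claudin count was 1 for selected minus EV in ENSW medium without EV line 1, with 1126 genes called in all, against 2967. For selected minus BRAF in base medium it was 0 without BRAF line 2 and 1 without BRAF line 3, with 842 and 1055 genes called in all, against 2094.

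In ENSW medium limma called no claudin between BRAF and EV organoids (2 of 9 had an unadjusted p under 0.05), where 6.22% of all genes were called. None was called between selected and BRAF organoids in ENSW medium (4 of 9 unadjusted), where 0.607% of all genes were. The selected, BRAF and EV comparisons share their arrays, so the counts of 1 comparison are no independent check on those of another. The median difference of the 9 tested claudins was -1.92 for selected minus EV in base medium, beside 0.020 over all genes. It was -0.98 for BRAF minus EV in base medium, beside 0.031 over all genes. In ENSW medium those medians were -1.03 for selected minus EV (0.11 over all genes) and -0.41 for BRAF minus EV (0.061 over all genes).

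**Figure D1:**
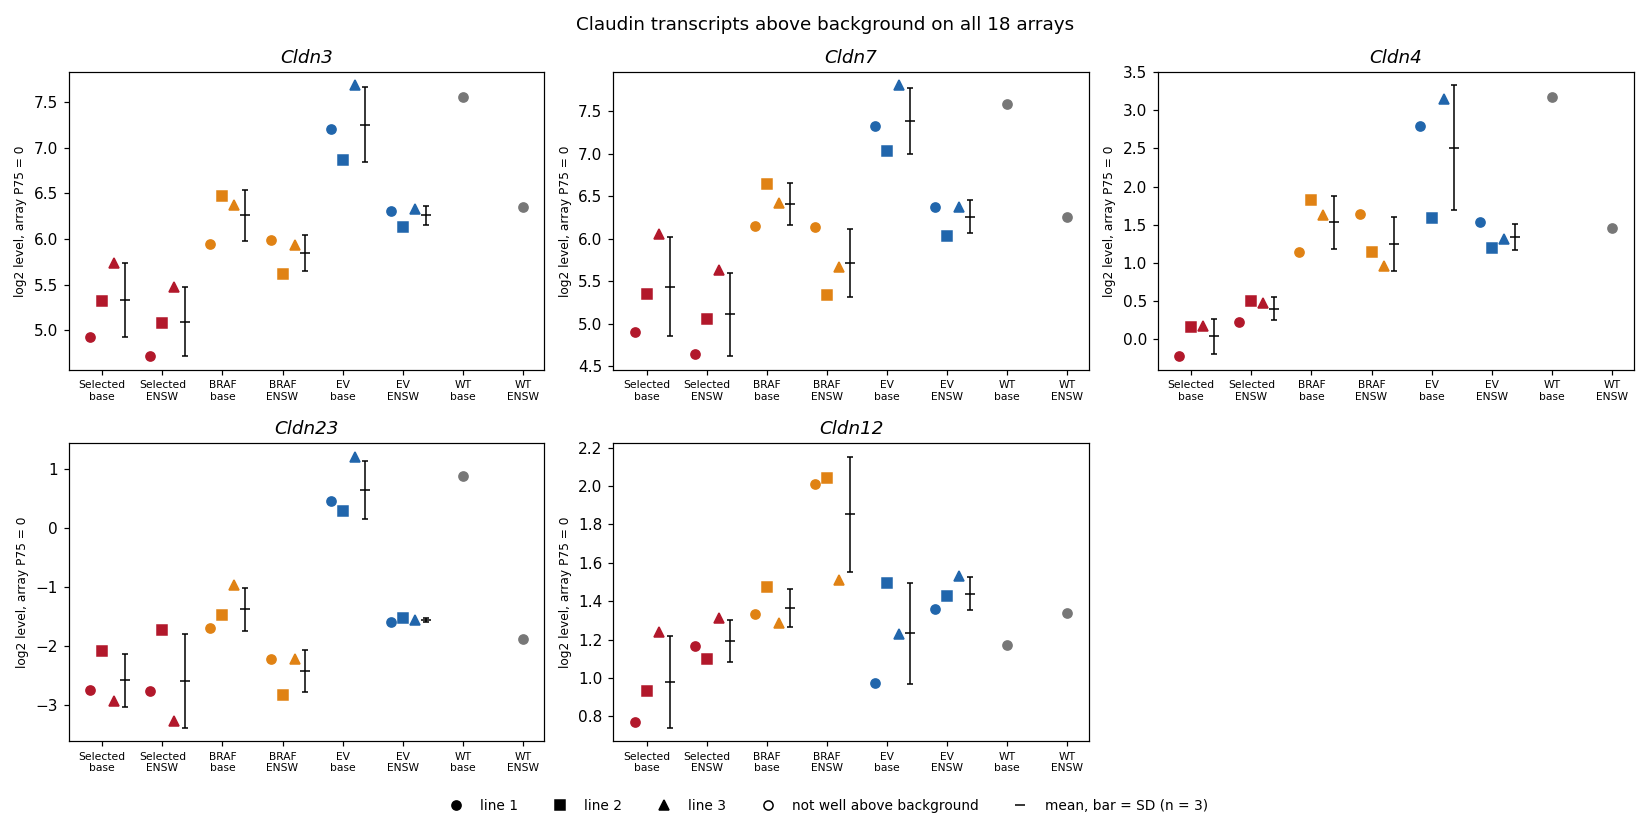
Levels of Cldn3, Cldn7, Cldn4, Cldn23 and Cldn12 on each array (y axis, log2 relative to the array's 75th percentile) for selected, BRAF, EV and WT organoids in base and ENSW medium (x axis). Symbols mark the line, the dash and bar beside them the mean and SD of 3 arrays. The 3 EV arrays in base medium lie above all 6 selected arrays for Cldn3, Cldn7, Cldn4 and Cldn23, and no such gap is seen for Cldn12.

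Cldn3 encodes a sealing claudin that is abundant in the intestine. In base medium Cldn3 stood at 4.93, 5.32 and 5.74 in selected lines 1, 2 and 3, at 5.94, 6.47 and 6.37 in BRAF lines and at 7.21, 6.86 and 7.68 in EV lines. The 3 types did not overlap there: every selected array was below every BRAF array, and every BRAF array below every EV array. In ENSW medium it stood at 4.72, 5.08 and 5.48 in selected, 5.99, 5.62 and 5.93 in BRAF and 6.31, 6.13 and 6.33 in EV lines. The WT arrays gave 7.56 in base and 6.35 in ENSW medium, each close to EV. In base medium Cldn3 was lower in selected than in EV organoids by a log2 difference of -1.92 ± 0.26 (SE, adjusted p = 3.25e-05 in limma). It was also lower in BRAF than in EV organoids (-0.99 ± 0.26, adjusted p = 0.0100). Against BRAF organoids the selected organoids differed by -0.93 ± 0.26 (adjusted p = 0.0345). That last call was lost with the slide as a fixed block (-0.45, adjusted p = 0.504), with it as a random block (0.0567) and with no filter on dim probes (0.0515). Leaving out selected line 1 or 2 or BRAF line 2 or 3 ended it too (adjusted p up to 0.131), as did leaving out both arrays of selected line 1 (0.108). Slide 4 held both types, and there Cldn3 of selected line 3 lay -0.21 from that of BRAF line 1 in base and -0.51 in ENSW medium. In ENSW medium Cldn3 was lower in selected than in EV organoids (-1.16 ± 0.26, adjusted p = 0.0103). For BRAF minus EV there, the difference was -0.41 ± 0.26 with an adjusted p of 0.379 and a 95% interval of -0.96 to 0.14.

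Cldn7 encodes a claudin found along the lateral membrane as well as in the junction, and loss of it in mice damages the intestinal epithelium. Cldn7 stood at 4.90, 5.35 and 6.06 in selected lines in base medium, at 6.15, 6.64 and 6.41 in BRAF lines and at 7.33, 7.03 and 7.80 in EV lines. As for Cldn3, the 3 types followed each other without overlap. In ENSW medium the levels were 4.65, 5.05 and 5.62 in selected, 6.14, 5.34 and 5.66 in BRAF and 6.37, 6.03 and 6.37 in EV lines. Selected and BRAF arrays overlapped there. Cldn7 was lower in selected organoids than in EV organoids in base medium (-1.95 ± 0.32, adjusted p = 0.000184) and in ENSW medium (-1.15 ± 0.32, adjusted p = 0.0307). The ENSW call was lost without EV line 1 or 3 or without selected line 1 or 2 (adjusted p up to 0.109), or without both arrays of selected line 1 (0.0805). BRAF minus EV in base medium was -0.98 ± 0.32 (adjusted p = 0.0320), a call that ended when EV line 1, EV line 3, BRAF line 1 or BRAF line 3 was left out (adjusted p up to 0.136). Selected minus BRAF in base medium was -0.97 ± 0.32 with an adjusted p of 0.0718, and it passed with the line as a replicate block (0.0445). With the slide as a fixed block it was -0.48 (adjusted p = 0.542), and on slide 4 selected line 3 lay -0.09 from BRAF line 1 in base and -0.52 in ENSW medium.

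Cldn4 encodes a claudin that limits sodium passage. In base medium Cldn4 stood at -0.22, 0.16 and 0.18 in selected lines, at 1.14, 1.82 and 1.63 in BRAF lines and at 2.79, 1.59 and 3.14 in EV lines. EV line 2 fell within the range of the BRAF lines, and all selected arrays were below both. In ENSW medium the levels were 0.22, 0.50 and 0.48 in selected, 1.64, 1.15 and 0.96 in BRAF and 1.53, 1.19 and 1.31 in EV lines. Selected arrays again lay below all others, and BRAF and EV arrays overlapped. Cldn4 was lower in selected organoids than in EV organoids in base medium (-2.47 ± 0.32, adjusted p = 2.84e-05). It was lower in selected than in BRAF organoids in base medium (-1.49 ± 0.32, adjusted p = 0.0116), a call lost with the slide as a fixed block (-1.38, adjusted p = 0.148) and without BRAF line 2 (0.0581). On slide 4 selected line 3 lay -0.96 from BRAF line 1 in base and -1.16 in ENSW medium. BRAF minus EV in base medium was -0.98 ± 0.32 (adjusted p = 0.0336), a call that ended with the culture as a random block (0.0602). It also ended when EV line 1 or 3, or BRAF line 1 or 3, was left out, with an adjusted p up to 0.162 for EV line 3. In ENSW medium selected minus EV was -0.94 ± 0.32 with an adjusted p of 0.0672. A second Cldn4 probe went the same way in all comparisons.

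Cldn23 encodes a claudin with a long cytoplasmic tail, known from differentiated cells of the colon surface. In base medium Cldn23 stood at -2.73, -2.07 and -2.93 in selected lines, at -1.68, -1.47 and -0.97 in BRAF lines and at 0.46, 0.29 and 1.21 in EV lines. EV stood far above both other types, and WT in base medium was at 0.88. In ENSW medium all levels lay between -3.27 and -1.52, with selected at -2.76, -1.72 and -3.27, BRAF at -2.22, -2.83 and -2.21 and EV at -1.59, -1.52 and -1.55. Cldn23 was lower in selected organoids than in EV organoids in base medium (-3.23 ± 0.37, adjusted p = 9.52e-06), which is a 9.39-fold lower signal, and -2.29 with normexp. It was lower in BRAF than in EV organoids as well (-2.03 ± 0.37, adjusted p = 0.0011). Both calls held in every alternative that could be fitted and without any single array. The slide as a fixed block could not be fitted here, since EV shared no slide with the other types. Selected minus BRAF in base medium was -1.20 ± 0.37 with an adjusted p of 0.0530. It passed in 7 of 29 alternatives, among them the slide as a random block (0.0395), and the adjusted p rose to 0.180 without BRAF line 3. In ENSW medium the difference was -1.03 ± 0.37 (adjusted p = 0.0772) for selected minus EV and -0.87 ± 0.37 (adjusted p = 0.176) for BRAF minus EV.

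Over the 18 arrays, levels of Cldn3 and Cldn7 correlated at r = 0.984, those of Cldn3 and Cldn4 at 0.930, and those of Cldn3 and Cldn23 at 0.865, as a description of arrays that share groups, lines and slides. Markers of mature colonocytes moved with these levels. Of 18 such genes 16 were on the array, and their summed level was 6.23 to 7.15 in selected, 8.22 to 9.71 in BRAF organoids and up to 11.7 in EV organoids in base medium, where every EV array lay above every BRAF array. In ENSW medium it was 6.32 to 6.47 in selected, 7.07 to 7.25 in BRAF and 7.42 to 8.91 in EV organoids. All 16 were well above background on every EV array, and the chloride exchanger gene Slc26a3 on no selected array. Slc26a3 and Slc9a3 were so on no BRAF array in ENSW medium. Other cell markers were summed by type in base medium too. The summed level of 8 goblet cell genes was 0.30 to 4.54 in selected, 3.52 to 5.58 in BRAF and 8.22 to 9.24 in EV organoids, with Tff3 well above background on no selected array. That of 8 enteroendocrine and tuft cell genes was -2.19 to -1.88 in selected, -1.31 to 3.62 in BRAF and 1.94 to 5.97 in EV organoids. Of these genes Chgb, Gcg, Neurod1 and Trpm5 were well above background on no selected array and Gcg on no BRAF array. That of 10 proliferation genes was 6.21 to 6.84 in selected, 4.65 to 5.59 in BRAF and 2.69 to 3.69 in EV organoids, with Aurkb well above background on no EV array. That of 9 stem cell genes was 3.40 to 5.88 in selected, 1.73 to 4.59 in BRAF and 1.30 to 2.05 in EV organoids. For selected minus EV in base medium, 14 of 16 tested colonocyte, 6 of 8 goblet and 5 of 8 enteroendocrine and tuft genes were called lower (23.2% of all genes). All 10 proliferation genes were called higher, but only 2 of 8 tested stem cell genes, where 25% of all genes were. For BRAF minus EV there, 1 of the 8 stem cell genes was called higher (17.9% of all genes). The part of these markers in the claudin differences was not tested. In these bulk samples, fewer cells of a type and less RNA per cell cannot be told apart.

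**Figure D2:**
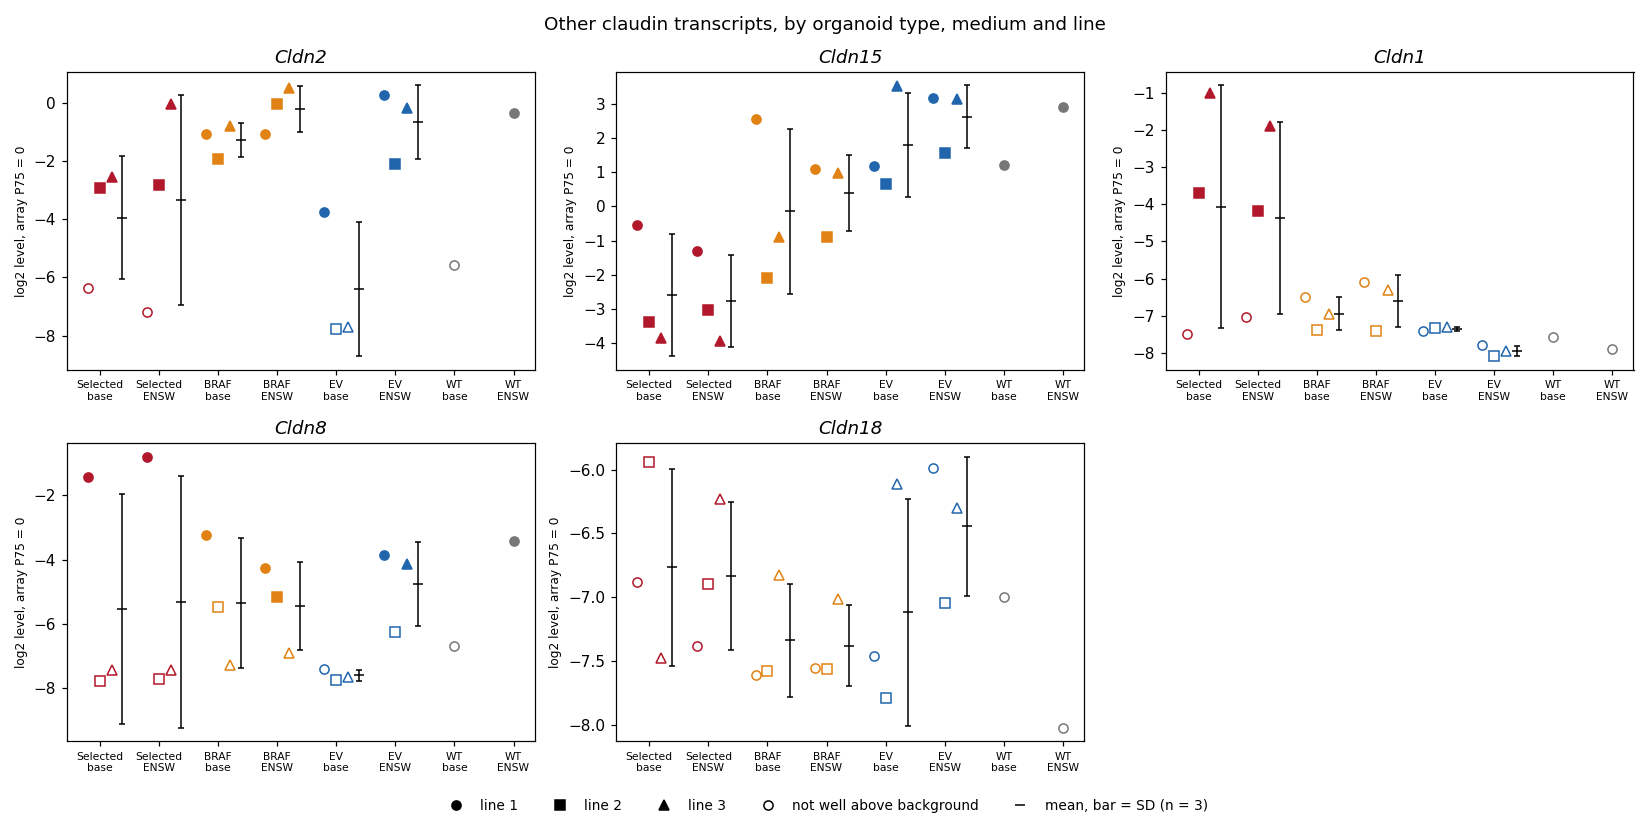
Levels of Cldn2, Cldn15, Cldn1, Cldn8 and Cldn18 on each array, drawn as in the plot of Cldn3 and Cldn7, where open symbols are arrays on which the probe was not well above background. Cldn1 is filled in selected lines 2 and 3 and open elsewhere, Cldn8 is highest in selected line 1, and Cldn2 is open on 2 of 3 EV arrays in base medium.

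Cldn15, a cation pore of the intestine, had the largest called fall against EV in selected organoids. In base medium Cldn15 stood at -0.55, -3.38 and -3.86 in selected lines, at 2.56, -2.10 and -0.89 in BRAF lines and at 1.19, 0.67 and 3.54 in EV lines. Every selected array was below every EV array, while BRAF arrays overlapped both. In ENSW medium it stood at -1.29, -3.04 and -3.95 in selected, 1.09, -0.90 and 0.98 in BRAF and 3.17, 1.57 and 3.15 in EV lines. There the 3 types did not overlap. Cldn15 was lower in selected than in EV organoids by -4.39 ± 1.21 in base medium (adjusted p = 0.00791) and by -5.39 ± 1.21 in ENSW medium (adjusted p = 0.0114). The ENSW call was narrowly lost without EV line 1 (0.0510). BRAF minus EV was -1.94 ± 1.21 in base (adjusted p = 0.241) and -2.24 ± 1.21 in ENSW medium (adjusted p = 0.299), with intervals that included 0. Selected line 1 held the highest Cldn15 of the selected lines in both media, and it was the line without Cldn1 signal.

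Cldn2 encodes the classical cation and water pore. In ENSW medium selected lines gave -7.19, -2.82 and -0.04 for Cldn2, BRAF lines -1.07, -0.04 and 0.50, and EV lines 0.28, -2.12 and -0.17. The value of selected line 1 was not well above background. In base medium selected lines gave -6.38 (not well above background), -2.91 and -2.56, BRAF lines -1.06, -1.93 and -0.81, and EV lines -3.75, -7.79 and -7.69. EV lines 2 and 3 were not well above background, and neither was the WT array at -5.57. Cldn2 was higher in BRAF than in EV organoids in base medium (5.15 ± 1.55, adjusted p = 0.0224), with 1 of 3 EV arrays measured, so the EV mean is in large part a bound and the size of the difference is uncertain. That size depended on the background treatment, with 1.61 after normexp correction and 2.41 in the authors' values, and leaving out EV line 2 or 3, or BRAF line 1 or 3, ended the call (adjusted p up to 0.0896). Selected minus EV was 2.46 ± 1.55 in base medium (adjusted p = 0.210) and -2.68 ± 1.55 in ENSW medium (adjusted p = 0.264). After normexp correction the base difference was 0.43 (adjusted p = 0.622). Without both arrays of selected line 1 it was 3.67 (adjusted p = 0.0225), and the ENSW difference was -0.76. A second Cldn2 probe went the same way in all comparisons.

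Cldn1, a barrier claudin of stratified and simple epithelia, was well above background only in selected lines 2 and 3. It passed the filter on dim probes through the 4 arrays of those lines alone. Its p-values for selected organoids against the other types are therefore a description and no support. In base medium Cldn1 stood at -7.50, -3.69 and -1.01 in selected lines 1, 2 and 3, and in ENSW medium at -7.03, -4.19 and -1.89, with line 1 not well above background in either. All 6 BRAF, all 6 EV and both WT arrays were not well above background. Selected minus EV was 3.28 ± 1.31 in base medium (measured means -4.07 and -7.35, adjusted p = 0.0518). In ENSW medium it was 3.57 ± 1.31 (measured means -4.37 and -7.94, adjusted p = 0.0839), and neither was called. Selected line 1 and all EV arrays were not well above background, so these sizes are uncertain. After normexp correction the log2 difference was 0.71 in base medium and 0.72 in ENSW medium (adjusted p = 0.300 in ENSW), neither called. The base difference passed with quantile normalization (adjusted p = 0.0491), with the line as a replicate block (0.0364), with the culture as a random block (0.0210) and with the slide as a random block (0.0398). Leaving out both arrays of selected line 1 kept only the selected lines with Cldn1 signal, so the smaller p-values this gave are no support. Against BRAF organoids the selected organoids had an adjusted p of 0.186 in base and 0.608 in ENSW medium, neither called.

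Cldn8, a sodium barrier of the colon, had the reverse pattern among selected lines. Line 1 stood at -1.42 in base and -0.80 in ENSW medium, the highest of all arrays, and lines 2 and 3 at -7.77 to -7.43 were not well above background. Of the BRAF arrays, Cldn8 was well above background in line 1 in both media (-3.24 in base, -4.25 in ENSW) and in line 2 in ENSW medium (-5.16). In EV organoids it was well above background in lines 1 and 3 in ENSW medium (-3.85 and -4.15), and on no array in base medium. No type difference was called for Cldn8, with SE of 1.84 on each difference. Cldn12, which lacks the usual C-terminal binding motif, ran from 0.77 to 2.04 over the 18 arrays, and its group means spanned 0.87, the least of the 9 tested genes. It was called in no comparison. Cldn18, which is known from stomach and lung, was well above background on 0 of 18 arrays and was not tested. Of 12 gastric markers 6 to 9 were flagged as well above background on none of the 3 arrays of a group, and the summed level of the list was 0.26 or lower on all 18 arrays.

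**Figure D3:**
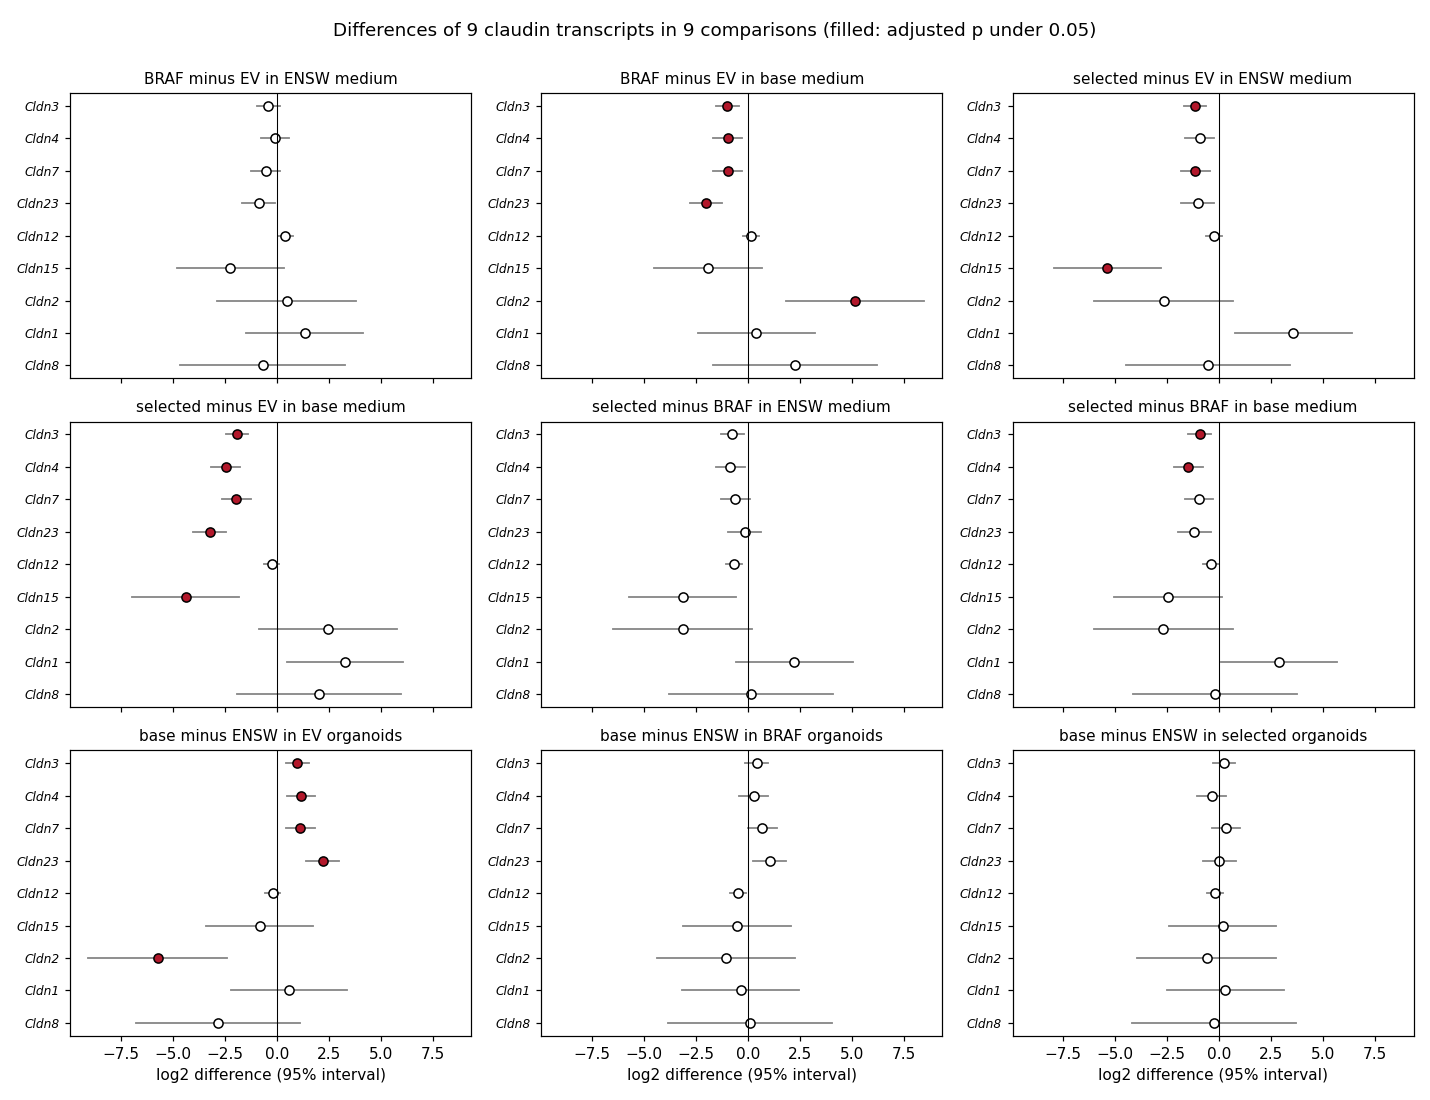
Log2 differences (x axis) of the 9 tested claudins (y axis) in the 9 comparisons between pairs of groups, each with its 95% interval from the limma fit. Filled points passed an adjusted p of 0.05, as 5 of 9 did for selected minus EV in base medium and 0 of 9 for base minus ENSW in selected organoids.

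In EV organoids, 4 of 9 claudins (Cldn3, Cldn4, Cldn7 and Cldn23) were higher in base than in ENSW medium and 1 (Cldn2) was lower, where 23.4% of all genes were called higher, 18.8% lower and 42.2% in either direction. Cldn23 rose by 2.21 ± 0.37 (adjusted p = 0.000296), Cldn4 by 1.16 ± 0.32 (adjusted p = 0.0100), Cldn7 by 1.13 ± 0.32 (adjusted p = 0.0116) and Cldn3 by 0.99 ± 0.26 (adjusted p = 0.00638). Cldn2 fell by 5.74 ± 1.55 (adjusted p = 0.00869), where only 1 of 3 EV arrays in base medium had it well above background, so that size is uncertain. The calls for Cldn4 and Cldn7 were lost without EV line 3 in base medium (0.0605 and 0.0626), which left 3 of the 5, and the Cldn2 difference was -2.12 with normexp and -3.07 with the authors' values. For Cldn8 the difference was -2.84 ± 1.84 (measured means -7.59 and -4.75, adjusted p = 0.239), which was not called. No EV array in base medium had Cldn8 well above background, so the size is uncertain. The adjusted p was 0.0320 with a random block for the culture, and after normexp correction the log2 difference was -0.18 (adjusted p = 0.806). The 1 WT culture ran the same way, with base minus ENSW of 2.75 for Cldn23, 1.71 for Cldn4, 1.34 for Cldn7, 1.21 for Cldn3 and -5.22 for Cldn2.

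Between the media, limma called no claudin in BRAF organoids (3 of 9 at an unadjusted p under 0.05), where 1.67% of all genes were called. When the culture was a random block, since both media came from 1 culture, 3 passed in BRAF organoids: Cldn23 (1.05, adjusted p = 0.0120), Cldn12 (-0.49, 0.0186) and Cldn7 (0.69, 0.0443). With that block 4082 genes were called in all, against 358 of 21423 in the main fit. In selected organoids 0 of 9 were called (0 of 9 unadjusted), where 0.00467% of all genes were. There the differences ran between -0.60 for Cldn2 and 0.33 for Cldn7.

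**Figure D4:**
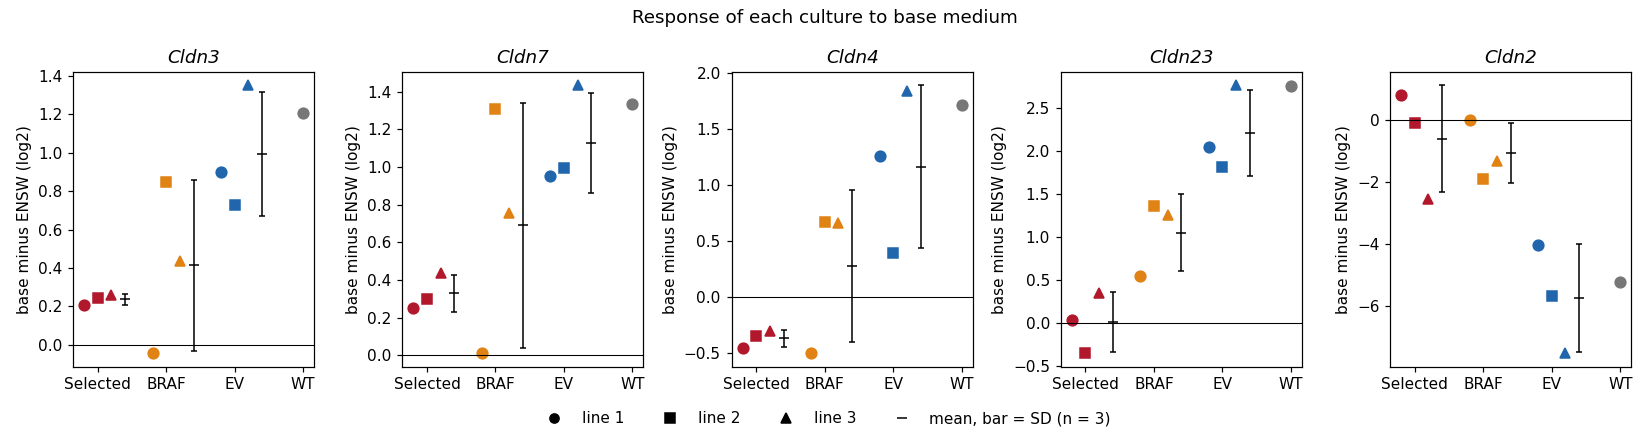
Difference between base and ENSW medium (y axis, log2) for each culture of selected, BRAF, EV and WT organoids (x axis), for Cldn3, Cldn7, Cldn4, Cldn23 and Cldn2; the dash and bar are the mean and SD of 3 cultures. The 3 EV cultures lie at 1.81 to 2.76 for Cldn23, and the 3 selected cultures at -0.36 to 0.34.

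The response to base medium itself differed between selected and EV organoids for 2 of 9 claudins (Cldn4 and Cldn23, both lower), where 10.4% of all genes were called lower and 24.2% in either direction. For Cldn23, base minus ENSW was 0.03, -0.36 and 0.34 in selected lines 1, 2 and 3, against 2.05, 1.81 and 2.76 in EV lines. The responses differed by -2.20 ± 0.52 (adjusted p = 0.00718). The call was kept in every alternative run, with differences of -2.55 to -1.76 and an adjusted p up to 0.0278. For Cldn4, base minus ENSW was -0.45, -0.34 and -0.30 in selected lines, against 1.26, 0.40 and 1.84 in EV lines. All selected cultures were lower in base medium and all EV cultures higher, and the responses differed by -1.53 ± 0.46 (adjusted p = 0.0259). Leaving out any 1 of 7 arrays ended that call (adjusted p up to 0.0703), as did leaving out both arrays of selected line 1 (0.0716). With the culture as a random block Cldn3 (-0.76, adjusted p = 0.0253) and Cldn2 (5.14, adjusted p = 0.00841) passed as well. That block called 9248 genes in all, against 5193 in the main fit. Between BRAF and EV organoids no difference in response was called (0 of 9 by limma, 1 of 9 unadjusted), where 3.53% of all genes were called. With normexp Cldn23 passed (-1.29, adjusted p = 0.0211). With the culture as a random block Cldn23 (-1.16, adjusted p = 0.0322) and Cldn2 (4.68, adjusted p = 0.0299) passed there. The block called 4238 genes in all, against 756 in the main fit. Between selected and BRAF organoids 0 of 9 responses were called (0 unadjusted), where 0% of all genes were.

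**Figure D5:**
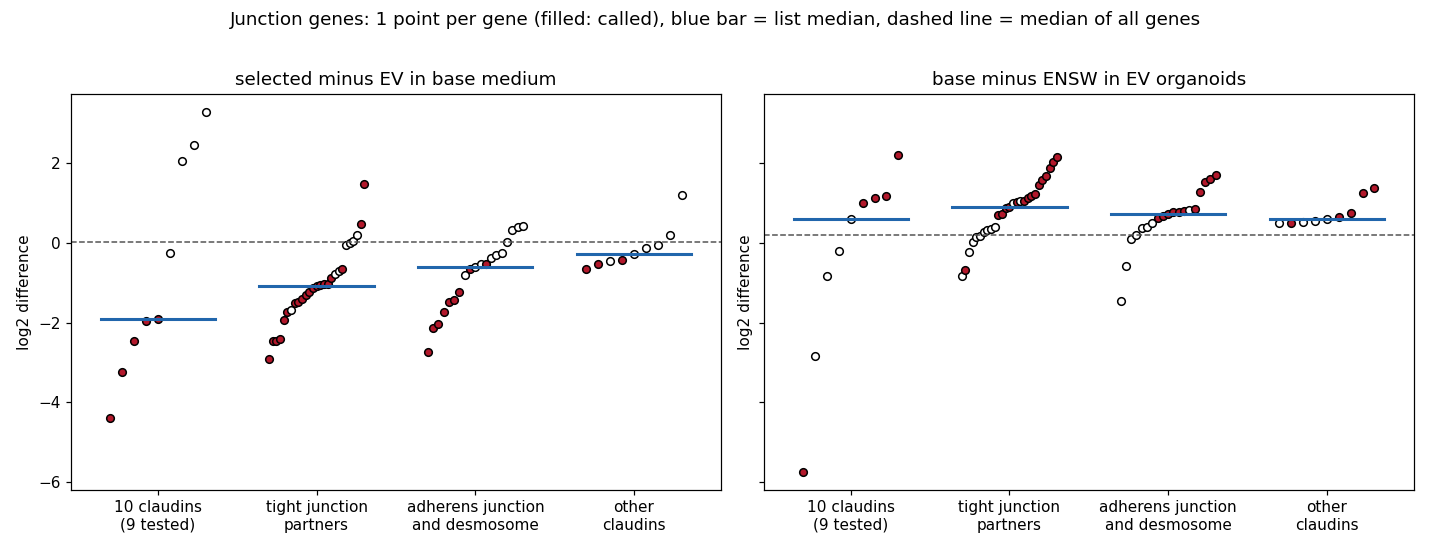
Log2 differences (y axis) of single genes in 4 lists (x axis), for selected minus EV organoids in base medium (left) and base minus ENSW medium in EV organoids (right). Filled points passed an adjusted p of 0.05, blue bars are list medians and the dashed line is the median of all genes, so that most partners lie below that line on the left and above it on the right.

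Other genes of the junction changed along with the claudins. Of 29 tight junction partners (transmembrane proteins, scaffolds and polarity proteins) 27 were tested. In base medium 18 were lower and 2 higher in selected than in EV organoids (23.2% and 25% of all genes), with a median of -1.09 beside 0.020 over all genes. Ocln, which encodes the strand protein occludin, differed by -2.92 ± 0.32 (adjusted p = 7.64e-06). Cgn, which encodes the plaque protein cingulin, differed by -2.47 ± 0.21 (adjusted p = 1.3e-06), and Igsf5, a junctional adhesion gene, by -1.94 ± 0.24 (adjusted p = 1.84e-05). The 2 that were higher were Cgnl1 and Sympk. BRAF organoids in base medium had 7 partners lower than EV (13.1% of all genes) and 0 higher, with Igsf5 at -1.31 ± 0.24 (adjusted p = 0.00122). In ENSW medium 3 partners (Cgn, Tjp3 and Ocln) were lower in selected than in EV organoids, where 5.15% of all genes were, and 0 were called between BRAF and EV. Selected organoids had 5 partners lower than BRAF organoids in base medium, where 5.14% of all genes were. Base medium raised 15 partners and lowered 1 in EV organoids (23.4% and 18.8% of all genes), with a median of 0.90 beside 0.19 over all genes, and raised 1, Igsf5, in BRAF organoids and 0 in selected organoids.

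Genes of adherens junctions and desmosomes, the neighbouring cell contacts, were lower or did not pass between types. Of 19 tested, 9 were lower and 0 higher in selected organoids than in EV organoids in base medium, where 23.2% of all genes were lower, with a median of -0.61 beside 0.020 over all genes. The desmosomal genes Dsg2 (-2.05 ± 0.18, adjusted p = 1.55e-06) and Dsp (-2.14 ± 0.25, adjusted p = 1.31e-05) were among them. In EV organoids base medium raised 11 and lowered 0 (23.4% and 18.8% of all genes), and 7 were lower in selected than in BRAF organoids in base medium (5.14% of all genes). Of 17 other claudin and claudin-domain genes, 9 were tested. Of those, 3 were lower in selected organoids than in EV organoids in base medium (Cldn14, Cldnd2 and Cldn19, at -0.65 to -0.43), beside 23.2% of all genes. In ENSW medium 1 of the 9 was higher there (8.7% of all genes), which was Cldn17 at 0.88 ± 0.24 (adjusted p = 0.0264), and no array of either group had it well above background. In EV organoids 5 of the 9 were higher in base than in ENSW medium and 0 lower, where 23.4% of all genes were higher. Summed levels of other lists differed between the media in EV organoids. The 9 stem cell genes had a summed level of 1.30 to 2.05 in base and 3.97 to 4.58 in ENSW medium. Of 8 tested, 4 were called lower in base medium and 0 higher. The summed level of 10 proliferation genes was 2.69 to 3.69 in base and 6.52 to 6.70 in ENSW medium, and all 10 were called lower. Of all genes 18.8% were called lower and 23.4% higher. For 10 mesenchymal genes the summed level was 1.16 to 2.82 in base and -1.11 to -0.084 in ENSW medium, with Col1a1, Pdgfra, Dcn and Lum well above background on no EV array. Yet of the 5 tested, only 1 was called higher and 0 lower, with a median difference of 0.24 beside 0.19 over all genes. The part of these lists in the junction differences was not tested.

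For the 4 claudins with the widest range over the 6 group means, the genes with the most similar levels over the 18 arrays were looked up by Pearson r, as a description. For Cldn2 they were Gjb2 (r = 0.873), Cotl1 (0.829) and Hoxa7 (0.828). For Cldn15 they were Gstt2 (0.916), Aldh1b1 (0.914) and Cdx1 (0.913). For Cldn1 they were Col11a2 (0.960), Dtx1 (0.955) and Col9a3 (0.954). For Cldn23 they were Wipf2 (0.968), Atp11b (0.967) and Metrnl (0.965). Arrays of 1 group, line or slide are not independent points, and 14 of the 18 Cldn1 values were not well above background.

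The order of group means from high to low was the same for Cldn3 and Cldn7: EV in base, BRAF in base, EV in ENSW, BRAF in ENSW, selected in base and selected in ENSW medium. Cldn23 had that order as well, and Cldn4 differed in the order of the 2 selected groups. For Cldn3, BRAF in base overlapped EV in ENSW medium, and BRAF in ENSW overlapped selected in base medium.

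Probe positions, in the mouse build mm9 of the files, lay on chromosome 5 for Cldn3 (135463284 to 135463342, plus strand), Cldn4 (135422135 to 135422194, minus strand), Cldn12 (5505223 to 5505282, minus strand) and Cldn15 (137451465 to 137451524, plus strand). The Cldn7 probe lay on chromosome 11 (69781255 to 69781314, plus strand), that of Cldn2 on X (136345244 to 136345303, plus strand) and that of Cldn23 on chromosome 8 (36888537 to 36888596, minus strand). The Cldn1 (26357372 to 26357431) and Cldn8 (88561135 to 88561194) probes lay on the minus strand of chromosome 16, and the Cldn18 probe on that of chromosome 9 (99592601 to 99592660). Which exon or UTR each probe covers was not analysed here.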

How the data were processed

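RNA of 10 organoid cultures, each in 2 media, was measured on 20 single-colour Agilent arrays. The deposited scanner output holds fluorescence intensity per spot, extracted with Feature Extraction 10.7.3.1 and background-subtracted per the file headers. The authors' deposited log2 table of these arrays ranked probes as the median signal did and had equal distributions across arrays, and it served as an alternative; the submitters' processing notes name limma. From the processed signal, log2 values minus the array's 75th percentile were computed here. Each array held 43020 non-control spots, and its 1377 control spots were left out. Over the 20 arrays together, 48 values of outlier spots were left out as well. A probe was kept if well above background on 3 or more of the 18 arrays, and the brightest of 26826 probes stood for each of 21423 genes. The 6 groups of 3 arrays were fitted with limma 3.58.1 (R 4.3.3), with 12 residual degrees of freedom and 12 contrasts, and adjusted by Benjamini-Hochberg. The fit was tested on simulated data. Python 3.11.15 was used with matplotlib 3.10.9, pandas 2.3.3 and numpy 2.4.6.

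The claudins, the other gene lists, the tests and the rule for naming genes were chosen with earlier results of these data known. The rule took all 10 claudins, up to 3 called genes by smallest adjusted p of each other list, and 3 genes of most similar pattern for the 4 claudins with the widest range; Cgnl1, Sympk, Slc26a3, Cdx1 and the markers not well above background were named after their values were seen. In both media a culture's arrays share a line by the labels, and their deviations from the group means correlated at 0.42 to 0.87 in 9 of 9 cultures. Same-numbered lines correlated at 0.10 to 0.37 between BRAF and selected, at -0.031 to 0.21 between BRAF and EV and at -0.081 to 0.088 between EV and selected organoids. The main fit did not pair lines. Alternatives were normexp (offset 50), quantile normalization, the authors' values, no filter, a filter at 9 of 18 arrays, the mean of probes, the line, culture or slide as a block, each array left out, and both arrays of selected line 1 left out.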

Additional observations from a re-analysis of the deposited data

Results flagged for a closer look

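Cldn4 and Cldn23 are listed because their response to base medium differed between selected and EV organoids by a test of the difference itself. For Cldn23 the difference between the responses was -2.20 ± 0.52 (SE, limma's interaction term, adjusted p = 0.00718), with the 3 selected cultures at -0.36 to 0.34 and the 3 EV cultures at 1.81 to 2.76. For Cldn4 it was -1.53 ± 0.46 (adjusted p = 0.0259), with the selected cultures at -0.45 to -0.30 and the EV cultures at 0.40 to 1.84. Over all genes, 24.2% had such a difference. No claudin was tested for a far-off single array, since groups held 3 arrays.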

How the results depend on the processing

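Of 22 called differences, 11 kept their call in each alternative and without each single array, 11 lost it without at least 1 array, and 5 lost it in another setting; 0 changed sign. Those kept throughout were Cldn2, Cldn3 and Cldn23 for the medium in EV organoids, Cldn3, Cldn4, Cldn7, Cldn15 and Cldn23 for selected minus EV in base medium, Cldn3 for selected minus EV in ENSW medium, Cldn23 for BRAF minus EV in base medium, and Cldn23 for the response of selected minus EV organoids. The slide as a fixed block could not be fitted for selected minus EV or BRAF minus EV within a medium, so those calls were not tried against it. Among 35 differences reported without a call, 18 passed in some setting. Of the 35, 2 turned sign when 1 array was left out: Cldn2 for BRAF minus EV in ENSW medium without EV line 2 (-0.26; -0.26 to 0.94 over single arrays) and Cldn4 there without BRAF line 3 (0.050; -0.29 to 0.050).

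The count of claudins called for selected minus BRAF in base medium was 1 without the filter and 1 with the slide as a fixed block (Cldn1 in place of Cldn3 and Cldn4), against 2. Over all genes, 1629 and 1334 were called in these settings, against 2094. For selected minus BRAF in ENSW medium it was 1 without both arrays of selected line 1, which was Cldn1, not well above background in that line. There 236 genes were called in all, against 130. For the medium in BRAF organoids it was 3 with the culture as a random block (4082 genes called in all, against 358). For the response of BRAF minus EV organoids it was 1 with normexp (1327 genes) and 2 with the culture as a random block (4238 genes), against 756 genes in the main fit. For that of selected minus EV it was 4 with the authors' values (5113 genes) and 4 with the culture as a random block (9248 genes). It was 1 without both arrays of selected line 1 (3856 genes), against 5193 genes in the main fit. The cause was not tested. The line as a replicate block changed no call but those of Cldn1 for selected minus EV and Cldn7 for selected minus BRAF in base medium, both given in the report.

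With 1 array left out, the count was 1 to 5 for BRAF minus EV, 5 to 6 for selected minus EV and 0 to 3 for selected minus BRAF in base medium. In ENSW medium it was 0 to 0 for BRAF minus EV, 1 to 4 for selected minus EV and 0 to 0 for selected minus BRAF. For the medium it was 3 to 5 in EV and 0 in BRAF and selected organoids, and for the responses 0 to 1 for BRAF minus EV, 1 to 2 for selected minus EV and 0 for selected minus BRAF.

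Scaling moved the median of all genes. With normexp it was 0.22 for BRAF minus EV in ENSW medium (main 0.061) and -0.23 for the response of BRAF minus EV (main -0.084), and the claudin differences are relative to it. For a probe not well above background only a bound is known.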
